A study of Mus musculus with 2 samples.

Results

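Siglech, Tcf4, Irf8, Spib, Runx2, Ccr9, Ly6d, Tlr7 and Tlr9 are genes by which plasmacytoid dendritic cells (pDCs) are recognized, kept in their identity, directed to tissues or made to sense nucleic acids. These 9 genes were taken by symbol from the 27998 mouse genes counted, without regard to their values, and all 9 were found. Their UMIs (unique molecular identifiers, a tag on each captured RNA molecule) were followed in pDCs, other dendritic cells (DCs), B cells, T cells, NK cells, monocytes and macrophages, which were gated by UMIs of marker genes. The data are 2 scRNAseq libraries of live CD45+ cells sorted from subcutaneous B16 melanomas. Both came from mice of the strain C57bl/6j aged 6 to 8 weeks that lacked mouse LAIR1 (mLAIR1-/-) and carried a human LAIR1 transgene (VAVcre+/- hLAIR1+/-) switched on by Vav-cre, a Cre driver active in blood-forming cells and their progeny. The control group therefore carried the same deletion and transgene as the treated group. Human LAIR1 is not among the genes counted. The treated group received h219-LLG, a humanized antibody that blocks human LAIR1 and has an Fc changed so that it triggers no Fc effector function, and the control group received an isotype antibody. As the study's methods describe the model, tumors grew from 500000 injected B16 cells. Antibody doses of 10 mg/kg were started on day 5 and repeated every 4 days up to 3 doses, with an end point of day 16. How many mice stand behind a library was not stated in the sources used here. With 1 library per condition there was no replicate and no test, and each interval below is a 95% interval that covers counting error only. A lower level in a pool of cells could also not be told apart from fewer cells of a subset within that pool.

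pDCs are rare round cells of the blood, lymphoid organs and tumors that are known as professional makers of type I interferon. They take up nucleic acids of viruses or dying cells into endosomes, where TLR7 binds single-stranded RNA and TLR9 binds unmethylated CpG DNA, and both pass the signal through the adaptor MyD88. The E protein encoded by Tcf4 sets and keeps the pDC identity, with help from Spib, Irf8 and Runx2, while Siglech and Ccr9 encode receptors at the surface of mouse pDCs.

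The sequence upstream of the start is shown for the pDC surface receptors Siglech and Ccr9 and the CpG DNA sensor Tlr9, because a search of the members' promoters found in these the same letters, CACCTG or its reverse complement CAGGTG, which have the form of an E-box (CANNTG), the kind of site E proteins bind. Each run holds the 250 bases before a RefSeq start in build GRCm38.p6, written 5′ to 3′ on the gene's strand, with the motif in capitals:
Siglech, chr7:55767934-55768183, + strand: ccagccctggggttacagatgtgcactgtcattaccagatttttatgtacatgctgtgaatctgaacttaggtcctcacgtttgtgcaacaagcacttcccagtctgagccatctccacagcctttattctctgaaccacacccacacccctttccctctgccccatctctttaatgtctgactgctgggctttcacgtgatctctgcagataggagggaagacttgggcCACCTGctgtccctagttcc
Ccr9, chr9:123766961-123767210, + strand: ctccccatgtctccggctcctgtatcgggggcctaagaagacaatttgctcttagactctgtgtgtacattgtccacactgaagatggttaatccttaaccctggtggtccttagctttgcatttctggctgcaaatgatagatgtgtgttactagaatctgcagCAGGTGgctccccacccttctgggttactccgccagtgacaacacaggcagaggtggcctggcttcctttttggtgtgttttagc
Tlr9, chr9:106222348-106222597, + strand: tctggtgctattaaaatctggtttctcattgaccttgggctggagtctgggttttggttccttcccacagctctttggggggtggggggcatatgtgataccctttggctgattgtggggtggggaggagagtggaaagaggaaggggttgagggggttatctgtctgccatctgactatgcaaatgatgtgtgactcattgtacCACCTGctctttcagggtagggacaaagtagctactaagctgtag
The Tlr9 run ends at the start of the gene model, the Siglech run reaches a few bases into it, and the Ccr9 run lies within the span of the longer GENCODE gene model. The motif lay between 14 and 79 bases before the start in these 3 genes. The RefSeq promoter table used here matched 6 of the 9 genes, and the letters were also found before 1 of 2 starts of Irf8 and before neither Spib nor Runx2. Of 32851 starts of all genes, 17.2% held the motif on either strand. It was chosen after the sequences had been seen, and a match is a description of letters and not of a bound site.

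The h219-LLG library held 8807 cell barcodes and 48834592 UMIs, and the control library 6133 barcodes and 40339654 UMIs. After barcodes with few genes or UMIs, at least 10% mitochondrial UMIs or a high doublet score had been removed, 6909 and 5332 cells remained, with medians of 4903 and 5682 UMIs. More barcodes failed the mitochondrial limit with h219-LLG (1342) than with control (501). The libraries shared 13 barcode sequences, 0.148% of the h219-LLG barcodes. Cells that met more than 1 of the 13 gates, 4.34% and 4.11% of the kept cells, were left out of all. Mouse Lair1 had UMIs in gated pDCs of both libraries (113 with h219-LLG and 400 with control), although both groups are labelled mLAIR1-/-. The sources used here do not state where the deleted part lies relative to the counted 3' ends, so these UMIs do not check the deletion.

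pDCs were gated by 7 genes that are not among the 9 (Klk1, Cox6a2, Pacsin1, Smim5, Rpgrip1, Cd209d and Upb1), so that no cell was picked as a pDC by UMIs of the 9. The levels of the 9 genes still depended on the leaving out of cells that met another gate, as the last section shows. The gate held 21 of 6909 cells with h219-LLG, 0.304% (0.188 to 0.464, exact binomial), and 61 of 5332 with control, 1.14% (0.876 to 1.47). The ratio of the shares was 0.266 (0.162 to 0.436), the lowest among the 13 gates, and that of NK cells came next at 0.513 (0.397 to 0.663). With every cell that met the pDC gate counted, whatever other gate it met, the ratio was 0.583, above that of NK cells. Of the 96 h219-LLG and 127 control cells so counted, 60 and 26 had no Siglech UMI. With 4 or more Siglech UMIs as the gate in place of the 7 genes, the ratio was 0.270. Cells that met another gate were again left out, so this gate held 21 of 36 h219-LLG and 60 of 101 control cells with 4 or more. All of these were also in the gate of 7 genes, so the value is no independent check. The 21 and 61 gated cells fitted their label by Bst2, a surface protein of pDCs that was used in no gate. It stood at 3502 CPM with h219-LLG and 3495 with control, where CPM is UMIs of the gene per 1000000 UMIs of the gate. In no other gate did Bst2 pass 248 and 239 CPM. The median depth of gated pDCs was 9046 UMIs with h219-LLG and 11884 with control, against 6082.5 and 7489 in CD8 T cells. Melanoma markers (Pmel, Mlana, Dct and Tyrp1) had 0 and 3 UMIs in gated pDCs, and neutrophil markers (S100a8, S100a9 and Retnlg) had none in either library. Hemoglobin genes had 2 and 12 UMIs, and the plasma cell markers Jchain and Mzb1 summed to 32 and 151, with 1 of the pair at 0 in both libraries.

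Siglech, which encodes the sialic acid-binding lectin that marks mouse pDCs and signals through the adaptor DAP12, is at chr7:55768178-55778925 on the + strand. Over the gated pDCs it had 564 UMIs with h219-LLG, a level of 3076 CPM (2828 to 3341), while control pDCs had 2449 UMIs, a level of 3397 CPM (3264 to 3535). Per cell the lowest, median and highest values were 17.3, 28.3 and 46.8 UMIs per 10000 UMIs of the cell with h219-LLG, and 0, 33.2 and 55.8 with control. The cells of the libraries overlapped over most of this range, and the ratio of the summed levels was 0.906 (0.825 to 0.993). A Siglech UMI was found in 21 of 21 and 60 of 61 gated pDCs, and, when each cell was thinned to 1000 UMIs, in 19 of 21 (90.5%) and 57 of 61 (93.4%). In CD8 T cells, which should lack the gene, it was found in 0 of 1750 cells, which allows a share of up to 0.171% by a limit of 3 counts, and in 5 of 1051 (0.476%).
Outside the pDC gate Siglech was at the level of scattered molecules. No gate other than pDC had more than 5 UMIs in a library, and in the 2002 and 1523 gated B cells there were none. These counts are partly set by the gating, since cells that met the pDC gate and another were left out of both. Of those that met exactly the pDC and cDC2 gates, 10 of 12 with h219-LLG and 30 of 30 with control had Siglech. Of all Siglech UMIs in kept cells, 99.4% with h219-LLG and 99.5% with control lay in cells that met the pDC gate, alone or with another gate. Every cell with 4 or more Siglech UMIs (36 and 101 cells) met the pDC gate, and every cell with 1 to 3 (6 and 20 cells) lay outside it. The converse did not hold, since of the 96 and 127 cells that met the pDC gate, alone or with another, 60 and 26 had no Siglech UMI, nearly all of them cells that also met another gate. As shares of the kept cells, those with 4 or more Siglech UMIs were 0.521% and 1.89%. The 1 gated control pDC without Siglech also had no Ccr9 and no Runx2 UMI, at a depth of 13771 UMIs.

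**Figure D1:**
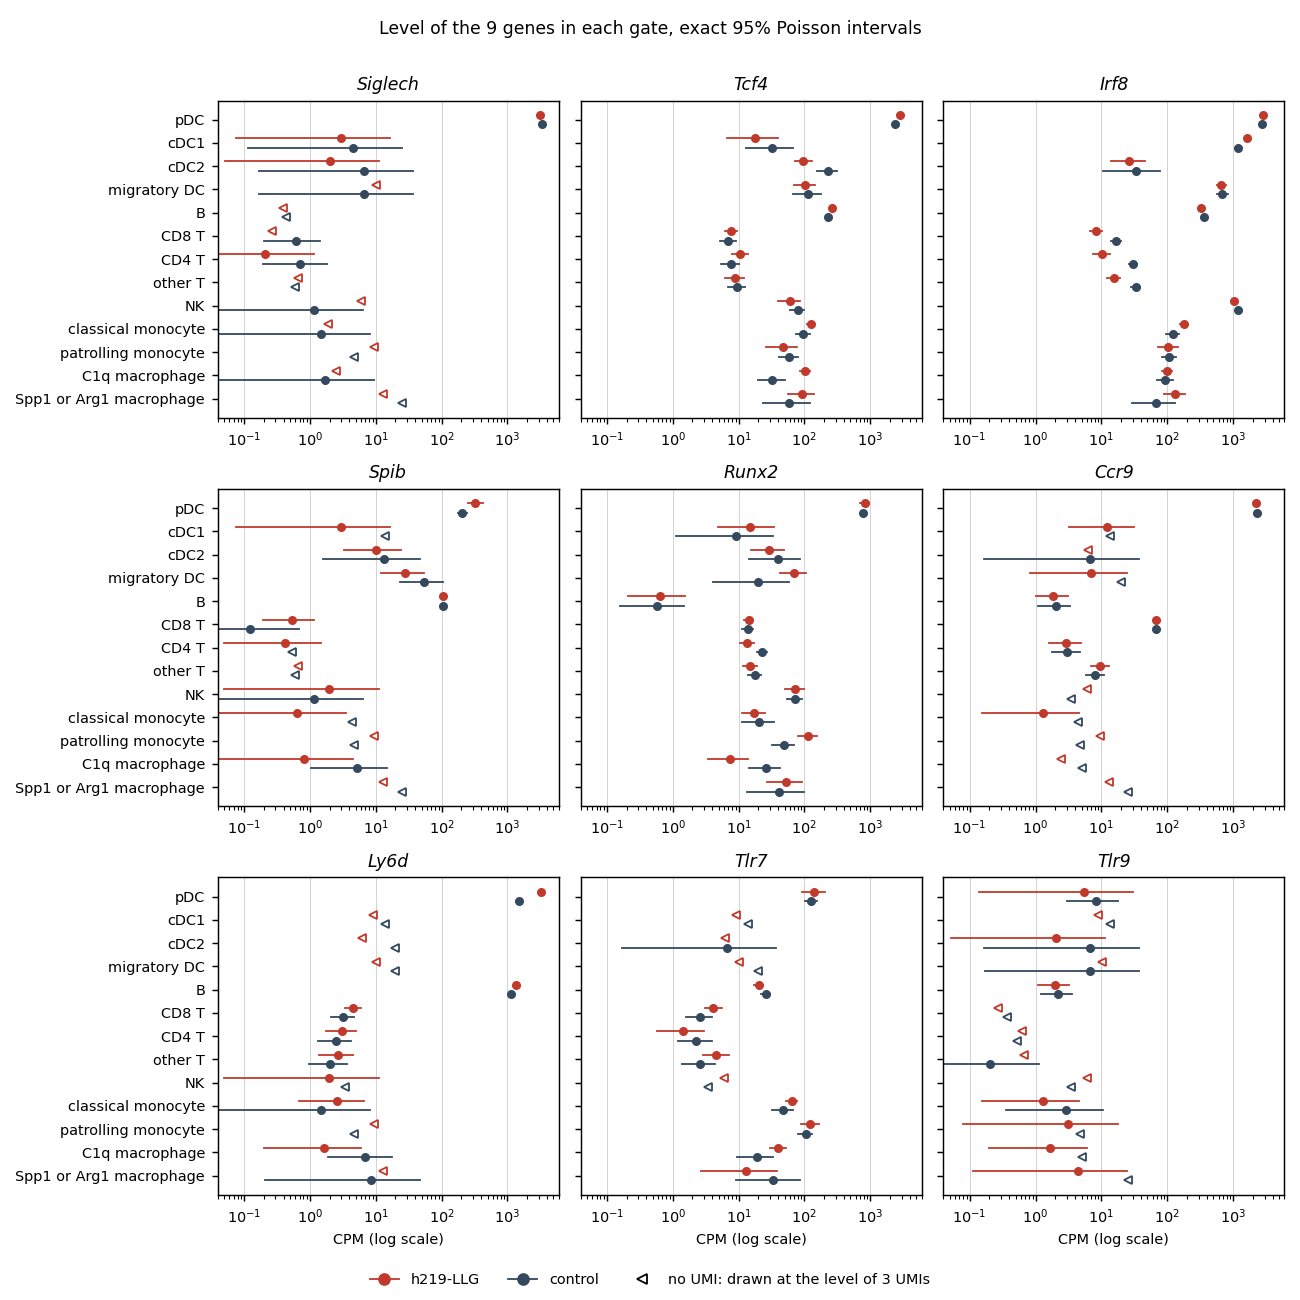
Level of each of the 9 genes (CPM, log scale) in 13 gates, with h219-LLG in red and control in dark blue. Points are sums over the gated cells of 1 library, lines are exact 95% Poisson intervals, and open triangles stand at the level of 3 UMIs where a gate had none. Siglech was at 3076 and 3397 CPM in pDCs and under 7 CPM in the other gates, while Irf8, Ly6d and Tlr7 each had another gate within 3-fold of pDCs in both libraries. Cells that met more than 1 gate are not included.

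Of the 9 genes, 4 (Siglech, Tcf4, Runx2 and Ccr9) were at least 4-fold higher in gated pDCs than in every other gate in both libraries, compared with 1.31% of the 5281 genes with at least 20 UMIs in pDCs (the genes of the gate left out). These 9 genes are known pDC genes, so this describes how well each sets the cells apart and is no discovery of pDC genes. The other gates held no cell that met the pDC gate too, since such cells were left out of both. With every cell that met the pDC gate counted as a pDC, 2 members passed 4-fold, and the share of all genes was not computed. Irf8, Spib, Ly6d and Tlr7 had another gate closer to pDCs, and Tlr9 had too few UMIs to be placed.

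Tcf4, the E protein gene at the top of the pDC program, lies at chr18:69343356-69689079 on the + strand. It was found in every gated pDC, with 511 UMIs and 2787 CPM (2551 to 3040) for h219-LLG and 1704 UMIs and 2364 CPM (2253 to 2479) for control. Per cell the lowest, median and highest values were 13.8, 27.6 and 55.0 UMIs per 10000 with h219-LLG and 5.81, 22.7 and 77.2 with control, so that the ranges overlapped. The ratio was 1.18 (1.07 to 1.30). B cells came next in both libraries with 258 and 227 CPM, 10.8 and 10.4 times below pDCs. In the control library B cells and cDC2s (225 CPM) did not differ beyond their intervals. T cells stood lowest, between 6.96 CPM in control CD8 T cells and 10.5 CPM in h219-LLG CD4 T cells.
Among the other gates, C1q macrophages differed most by library in this gene, with 125 UMIs and 103 CPM (85.7 to 123) for h219-LLG and 19 UMIs and 32.5 CPM (19.6 to 50.8) for control. A Tcf4 UMI was found in 46.4% of 140 and 12.5% of 88 of these macrophages at median depths of 5643.5 and 4244 UMIs, and, thinned to 1000 UMIs, in 8.76% and 3.61%, against 0.743% and 0.666% of thinned CD8 T cells. The ratio was 3.17 (1.94 to 5.43), and 4.57 (2.52 to 9.10) without the cell of most Tcf4 UMIs in each library. In this gate 3 of the 4 genes measured passed 1.5-fold, Tcf4 and Tlr7 upward and Runx2 downward, beside 35.6% of all genes measured there.

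Irf8, a transcription factor required by pDCs and by cDC1s, the DCs that cross-present antigen, is at chr8:120736358-120756694 on the + strand, where it overlaps the gene model Gm20388 on the same strand, so that its counts are uncertain to that extent. It had 526 UMIs and 2869 CPM (2629 to 3125) in gated pDCs with h219-LLG and 1946 UMIs and 2700 CPM (2581 to 2822) with control, and its ratio was 1.06 (0.963 to 1.17). Every gated pDC had at least 7 UMIs of it. The lowest, median and highest cells had 16.3, 30.4 and 42.6 UMIs per 10000 with h219-LLG and 11, 25.2 and 64.4 with control, which overlap.
Irf8 formed a graded series over the gates in place of a single peak. pDCs were followed by cDC1s (1640 and 1195 CPM), NK cells (1021 and 1171 CPM), migratory DCs (666 and 686 CPM) and B cells (324 and 366 CPM), in the same order in both libraries. Every step of this order exceeded the intervals, apart from cDC1s and NK cells in the control library. cDC2s, the DCs that mainly prime CD4 T cells, held little of it (26.7 and 33.1 CPM, on 13 and 5 UMIs). In T cells the level was lower with h219-LLG in each gate, at 8.30 against 16.9 CPM in CD8 T cells, 10.1 against 30.4 CPM in CD4 T cells and 15.4 against 33.1 CPM in the other T cells. The ratio in CD4 T cells was 0.333 (0.237 to 0.460), and a UMI was found in 4.21% of 832 and 13.4% of 811 of them at median depths of 5540 and 6614 UMIs, or in 0.964% and 3.08% after thinning. In the CD4 T gate 3 of 6 genes measured passed 1.5-fold, all lower, beside 18.7% of all genes. Among them Tlr7 had 7 and 13 UMIs and an interval that included 1 (0.213 to 1.70).

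Spib, an Ets family factor that works with Tcf4 in pDCs and is also used by B cells, is at chr7:44525993-44532071 on the - strand. It was sparser, with 60 UMIs and 327 CPM (250 to 421) in gated pDCs for h219-LLG and 150 UMIs and 208 CPM (176 to 244) for control. A UMI was found in 18 of 21 and 53 of 61 cells, and in 28.6% and 23.0% after thinning, against 6 of 1750 (0.343%) and 1 of 1051 (0.0951%) CD8 T cells. The median cell had 2.01 and 1.73 UMIs per 10000, and the highest 13.2 and 9.15. The ratio was 1.57 (1.15 to 2.14), but without the cell of most Spib UMIs in each library it was 1.42 (1.00 to 1.98). B cells held 104 CPM in both libraries, with a ratio of 0.998 (0.902 to 1.11). Below them came migratory DCs (27.4 and 53.3 CPM), and there was no Spib UMI in patrolling monocytes.

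Runx2, a Runt family factor needed for mature pDCs to leave the bone marrow and best known from bone, is at chr17:44495987-44814797 on the - strand, with antisense genes and Supt3 annotated on the other strand. In gated pDCs it had 152 UMIs and 829 CPM (703 to 972) for h219-LLG and 567 UMIs and 787 CPM (723 to 854) for control, and the ratio was 1.05 (0.875 to 1.26). The lowest, median and highest cells had 1.20, 7.35 and 20.2 UMIs per 10000 with h219-LLG and 0, 7.14 and 17.6 with control. B cells, which came next to pDCs for Tcf4, Spib and Ly6d, stood lowest for Runx2 in both libraries, at 0.653 and 0.576 CPM. Patrolling monocytes held 114 CPM (79.6 to 157) in the treated and 48.2 CPM (32.7 to 68.4) in the control library, for a ratio of 2.36 (1.42 to 3.94), and NK cells held 71.5 and 72.0 CPM. Of 4 genes measured in patrolling monocytes Runx2 alone passed 1.5-fold, beside 28.4% of all genes there.

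Ccr9, the receptor for the chemokine CCL25 that draws cells to the gut and thymus and is kept by mature pDCs, is at chr9:123678439-123784330 on the + strand, with Slc6a20a and Lztfl1 on the other strand. It had 414 UMIs and 2258 CPM (2046 to 2487) in gated pDCs for h219-LLG and 1635 UMIs and 2268 CPM (2160 to 2381) for control. The ratio was 0.996 (0.892 to 1.11), 0.726 after thinning to 1000 UMIs per cell and 1.07 without a mitochondrial limit. Cells varied widely, with lowest, median and highest values of 2.21, 22.7 and 52.2 UMIs per 10000 in 1 library and 0, 21.6 and 64.4 in the other, in the order h219-LLG and control. CD8 T cells were the only other gate clearly above the rest, at 68.6 CPM (63.9 to 73.6) and 68.0 CPM (62.5 to 73.9), with a UMI in 27.7% and 30.3% of cells (7.37% and 7.80% after thinning). CD4 T cells held 14 and 17 UMIs (2.89 CPM with h219-LLG), and NK cells and both macrophage gates had no Ccr9 UMI.

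Ly6d, a GPI-anchored surface protein used to mark lymphoid progenitors on the way to B cells or pDCs, is at chr15:74762056-74763620 on the - strand, and among the members it differed most between the libraries in pDCs. It had 600 UMIs and 3273 CPM (3016 to 3545) for h219-LLG and 1093 UMIs and 1516 CPM (1428 to 1609) for control, a ratio of 2.16 (1.95 to 2.39). With every cell that met the pDC gate counted, whatever other gate it met, the ratio was 0.663. Of the cells so counted, 60 of 96 with h219-LLG and 26 of 127 with control had no Siglech UMI. With 4 or more Siglech UMIs as the gate, the Ly6d ratio was 2.14. Cells that met another gate were left out there too, so this rests on nearly the same cells as the main gate. Gated pDCs had lowest, median and highest values of 1.10, 23.8 and 83.8 UMIs per 10000 with h219-LLG and 0, 11.6 and 51.5 with control. The cells overlapped, and the upper part of the range was filled with h219-LLG. A UMI was found in 21 of 21 and 57 of 61 gated pDCs, and after thinning in 17 of 21 (81.0%) and 35 of 61 (57.4%), against 2.11% and 1.81% of CD8 T cells (0.457% and 0.190% thinned). Without the cell of most Ly6d UMIs in each library the ratio was 2.09 (1.88 to 2.32).
B cells were the other population with Ly6d, at 1340 CPM (1314 to 1366) and 1141 CPM (1116 to 1167), a ratio of 1.17 (1.14 to 1.21), and cDC1s, cDC2s and migratory DCs had no UMI of it in either library. Cells that met the pDC gate and another DC gate had been left out of these gates. Genes of the B cell gate were likewise kept low in pDCs by the gating, since cells that met both gates were left out. Of B-lineage genes outside the gates, Pax5 had no UMI in pDCs, Ebf1 had 0 and 1 UMI, and Cd79b had 9 and 23, or 49.1 and 31.9 CPM against 1044 and 806 CPM in B cells. Blnk, an adaptor of B cell receptor signaling, stood at 229 and 314 CPM in pDCs and 192 and 207 CPM in B cells. The part of B cell RNA in the Ly6d difference was not tested. Ly6k, a related gene of the same family, had 9 UMIs in pDCs with h219-LLG and none with control, and in B cells it stood at 5.10 and 0.432 CPM. Ly6a, the family member known as Sca-1, had 167 and 231 UMIs in pDCs, 911 and 320 CPM, a ratio of 2.84 (2.32 to 3.48), and 383 and 185 CPM in B cells. Ly6e, another member, stood at 2247 and 1960 CPM in pDCs, a ratio of 1.15 (1.02 to 1.28).

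**Figure D2:**
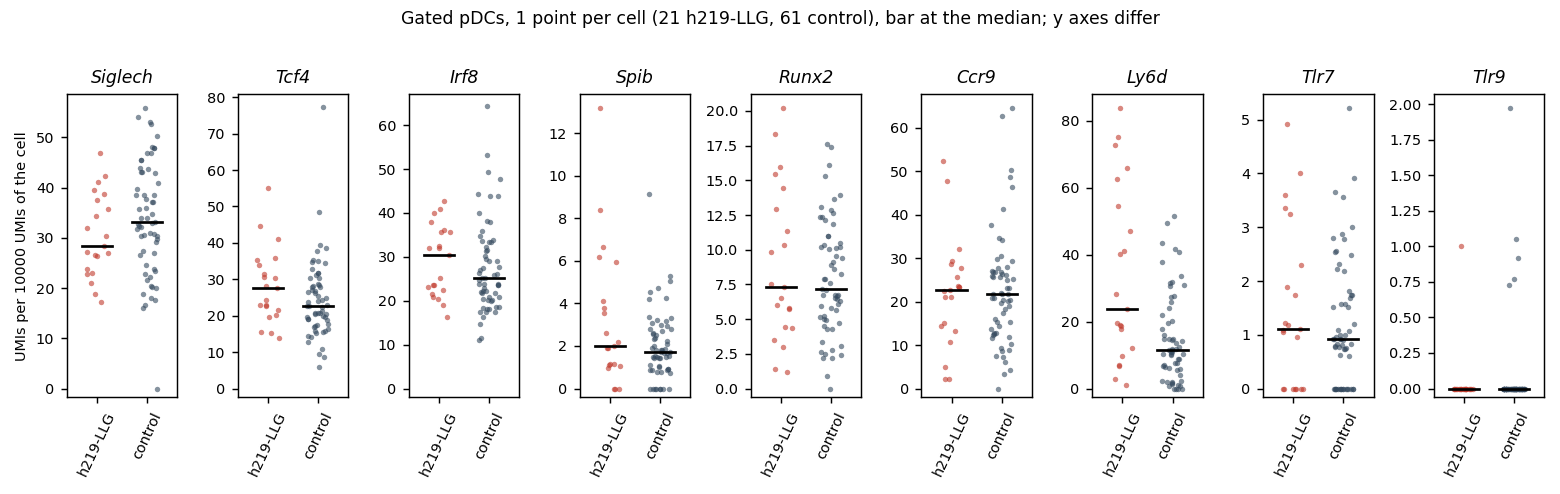
UMIs of each gene per 10000 UMIs of the cell in the 21 h219-LLG and 61 control gated pDCs, with 1 point per cell, a bar at the median and an axis of its own for each gene. Cells of the libraries overlap for all 9 genes. The medians of Ly6d were 23.8 and 11.6, while those of Ccr9 were 22.7 and 21.6.

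Tlr7, the endosomal sensor of single-stranded RNA, is at chrX:167304929-167330558 on the - strand. It was found in 14 of 21 and 44 of 61 gated pDCs (66.7% and 72.1%), with 26 UMIs and 142 CPM (92.6 to 208) for h219-LLG and 91 UMIs and 126 CPM (102 to 155) for control, and the ratio of 1.12 (0.697 to 1.75) had too few UMIs behind it to show a change of 1.5-fold. After thinning a UMI was left in 2 of 21 and 4 of 61 cells. The highest cell had 4.93 and 5.21 UMIs per 10000. Tlr7 did not set pDCs apart, since patrolling monocytes had 123 CPM (87.6 to 168) and 104 CPM (80.7 to 132), within the interval of pDCs in both libraries. Classical monocytes came next with 64.0 and 46.9 CPM, in both libraries. C1q macrophages held 40.4 (29.9 to 53.4) and 18.8 CPM (9.40 to 33.7), above B cells (20.1 CPM) with h219-LLG and below them (25.8 CPM) with control. A Tlr7 UMI was found in 1.71% to 2.34% of CD8 T cells at median depths of 6082.5 and 7489 UMIs. In cDC1s and migratory DCs there was none, and in cDC2s there was 1 in all.

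Tlr9, the endosomal sensor of CpG DNA, is at chr9:106222598-106226883 on the + strand. It was nearly out of reach of these libraries, with 1 UMI in 21 gated pDCs for h219-LLG, 5.45 CPM (0.138 to 30.4), and 6 UMIs in 61 for control, 8.32 CPM (3.05 to 18.1). The ratio of 0.655 (0.0142 to 5.40) shows neither a difference nor its absence. B cells had 15 UMIs in each library, at 1.96 and 2.16 CPM, and in CD4 and CD8 T cells there was none. In the control library the lower bound in pDCs (3.05 CPM) lay within the interval of B cells (1.21 to 3.56 CPM), so that pDCs and B cells could not be placed in order.

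Among the 12 Toll-like receptor genes only Tlr7 and Tlr12 had at least 20 UMIs in gated pDCs. Tlr12, an endosomal receptor that binds profilin of parasites, had 8 and 27 UMIs, or 43.6 and 37.5 CPM, with a ratio of 1.17 (0.457 to 2.64). No other gate passed 10.3 and 13.3 CPM of it. Tlr3, the sensor of double-stranded RNA, had no UMI in pDCs and 33 and 14 UMIs in cDC1s (99.1 and 64.1 CPM). Tlr13, which senses bacterial ribosomal RNA, had none in pDCs and 152 and 127 CPM in patrolling monocytes, and Tlr8 likewise had none in pDCs. Receptors of the cell surface were almost missing, with 3 and 2 UMIs of Tlr2 and 0 and 1 of Tlr4 in pDCs.

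**Figure D3:**
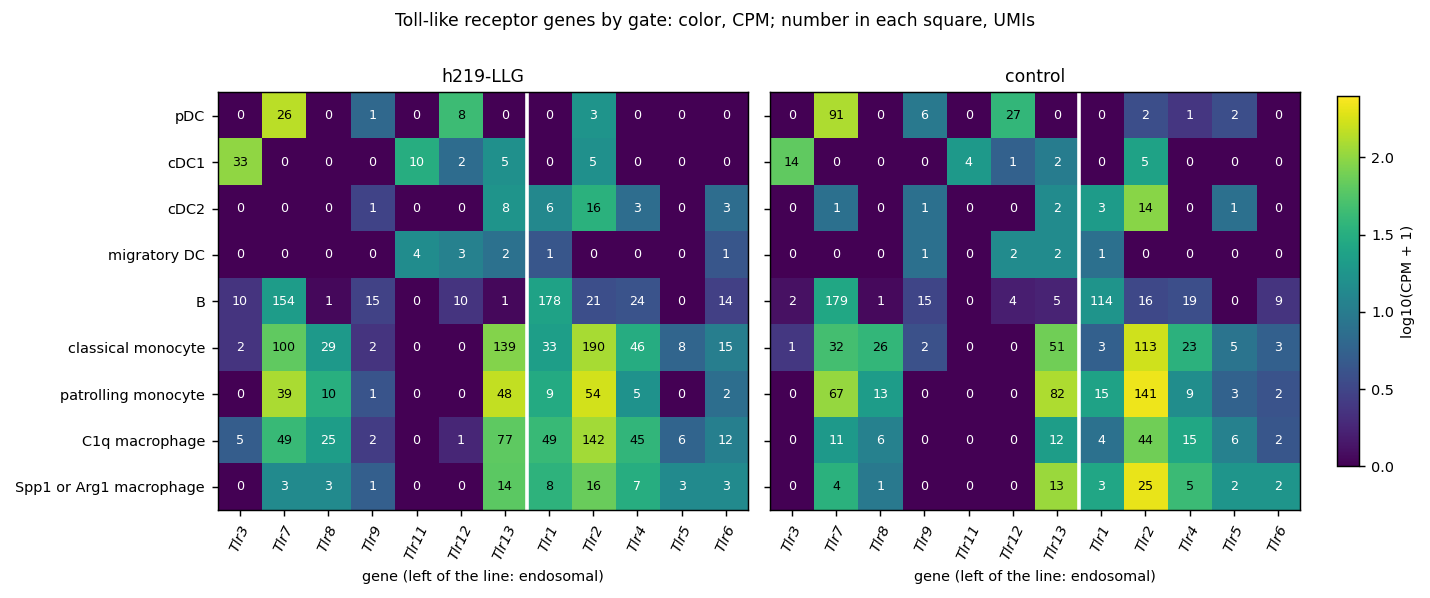
Toll-like receptor genes (columns, endosomal receptors left of the white line) in 9 gates (rows) of each library, colored by log10(CPM + 1), with the number of UMIs in each square. In pDCs Tlr7 (26 and 91 UMIs) and Tlr12 (8 and 27) stand out, and Tlr3 is in cDC1s. Tlr13 and Tlr2 are mainly in monocytes and macrophages, with Tlr2 also in cDC2s (32.8 and 92.8 CPM).

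Most genes of the machinery that serves TLR7 and TLR9 could be measured in pDCs, several on few h219-LLG UMIs (3 of Irak2, 5 of Traf6). Of 24 symbols listed for endosomal TLR signaling 23 were among the genes counted, and 20 had at least 20 UMIs. Among these, 1 was at least 1.5-fold higher with h219-LLG and 3 were lower, beside 11.7% and 20.3% of all genes measured in pDCs. The median log2 ratio was -0.10, beside -0.04 over all genes. Unc93b1, the chaperone that brings these receptors to endosomes, stood at 518 and 551 CPM in pDCs, with at most 326 and 277 CPM in another gate, and its ratio was 0.941 (0.744 to 1.18). Myd88, the shared adaptor, had 17 and 29 UMIs (92.7 and 40.2 CPM) and a ratio of 2.30 (1.19 to 4.34), and Nfkb1, an NF-kappaB subunit, came next at 1.23 (0.845 to 1.76). The lowest were Rela, the other main NF-kappaB subunit, at 0.467 (0.180 to 1.02) on 7 and 59 UMIs, and Slc15a4, a lysosomal transporter needed for the interferon response, at 0.621 (0.372 to 0.988) on 21 and 133 UMIs. Irf7, the factor that turns on type I interferon genes, was at 109 and 98.5 CPM with a ratio of 1.11 (0.639 to 1.84).
For the interferons, the best known products of this pathway in pDCs, 8 type I and III genes were looked up and no others. Ifna1, Ifna2, Ifna4, Ifna5, Ifnab, Ifnb1, Ifnl2 and Ifnl3 had no UMI in gated pDCs of either library. There 3 UMIs would stand at 16.4 CPM with h219-LLG and 4.16 CPM with control. Among the cytokines listed with them, Il12a (10 and 55 UMIs, ratio 0.715, 0.325 to 1.42) and Ccl4 (55 and 522 UMIs, ratio 0.414, 0.308 to 0.548) had enough UMIs to be measured. Interferon-stimulated genes gave 4 measured genes of 14, none past 1.5-fold, beside 32% of all genes either way, with a median log2 ratio of 0.08. Of these 4 Ifi47, an interferon-induced GTPase, had the highest ratio (1.27, 0.713 to 2.15). The rest of the list had under 20 UMIs and went both ways. Isg15 had 8 and 7 UMIs, a ratio of 4.49 (1.42 to 14.6), and Xaf1 had 1 and 12, a ratio of 0.328 (0.00766 to 2.21).

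Of the 8 members measured in pDCs 2, Ly6d and Spib, passed 1.5-fold with h219-LLG, both upward, and none was lower. With every cell that met the pDC gate counted 8 members passed, all lower, Siglech itself at 0.308. Of the 96 h219-LLG and 127 control cells so counted, 60 and 26 had no Siglech UMI. With 4 or more Siglech UMIs as the gate 2 members passed, Ly6d at 2.14 and Spib at 1.55. That gate also left out cells that met another gate and held nearly the same cells as the main gate. Of the 5288 genes measured in pDCs of the main gate 32% passed this fold, 11.7% upward and 20.3% downward. In that gate 2 of 8 was no larger a share than that of all genes either way. The share of all genes was not computed for the other sets of cells, so the count of 8 lower members has none beside it. The median log2 ratio of the 8 genes was 0.13, beside -0.04 over all genes. When cells that met the pDC and cDC2 gates and no other were counted as pDCs, a choice made after seeing the data, the ratio of Ly6d was 1.81 and that of Spib 1.40. Cells that met exactly these gates numbered 12 with h219-LLG, 10 of them with Siglech, and 30 with control, all with Siglech, and Ly6d stood at 2139 and 1616 CPM in them.
In the remaining gates the members past 1.5-fold were likewise counted beside all genes of the gate. None of the 7 measured in B cells passed, beside 15.4% of all genes, none of 3 in NK cells (23.5%), none of 4 in classical monocytes (25.6%) and not Irf8, the 1 gene measured in cDC1s (28.6%). In CD8 T cells 2 of 6 passed (18.8%), Tlr7 upward and Irf8 downward, and the same genes passed in the other T cells (17%). The interval of Tlr7 included 1 in both, at 0.948 to 2.85 on 47 and 21 UMIs and 0.844 to 3.84 on 21 and 13. Tcf4 passed among 2 genes in cDC2s (32.9%), where it was lower. Runx2 passed among 3 genes in migratory DCs (32.4%), on 20 and 3 UMIs, and both genes measured in Spp1 or Arg1 macrophages (37.6%), Tcf4 and Irf8, were higher, on 7 and 8 control UMIs.

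**Figure D4:**
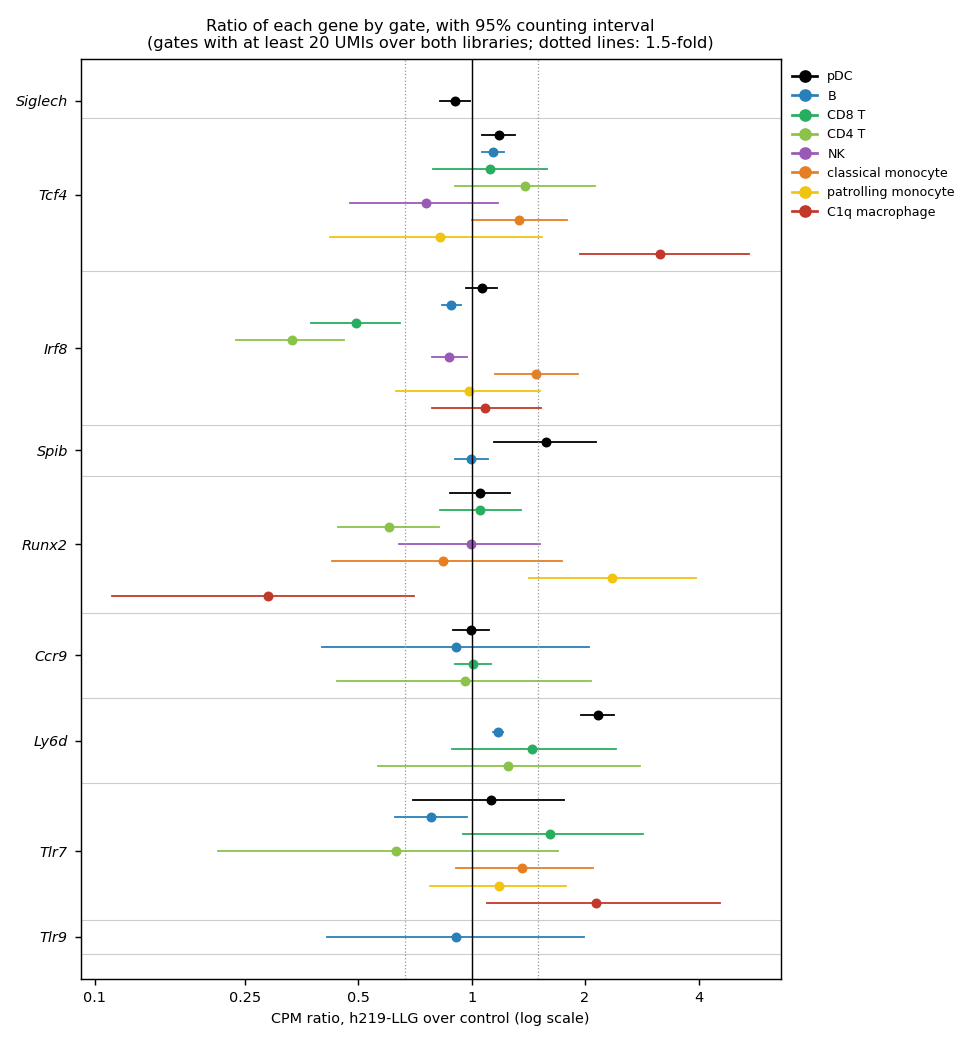
CPM ratio, h219-LLG over control (log scale), of each gene in pDCs and 7 other gates where it had at least 20 UMIs, with 95% counting intervals and dotted lines at 1.5-fold. Ly6d stands at 2.16 in pDCs and 1.17 in B cells, Irf8 at 0.333 in CD4 T cells and 1.06 in pDCs, and Tcf4 at 3.17 in C1q macrophages.

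Other transcription factors of DCs gave 15 measured genes of 19 in gated pDCs, 2 higher and 1 lower past 1.5-fold. Of all genes measured there 11.7% were higher and 20.3% lower, and the median log2 ratio of the list was 0.02. Bcl11a, which acts upstream of Tcf4, stood at 851 and 468 CPM with a ratio of 1.82 on 156 and 337 UMIs, and Spi1, the myeloid factor PU.1, at 1.61 (0.652 to 3.63) on 9 and 22 UMIs. Zbtb18 was lowest at 0.546 (0.167 to 1.40) on 5 and 36 UMIs, and Irf4, used by cDC2s and B cells, was at 0.724 (0.273 to 1.64). Id2, the inhibitor that antagonizes E proteins in conventional DCs, had 3 and 16 UMIs in pDCs, 16.4 and 22.2 CPM, against up to 2059 and 2006 CPM in another gate. Batf3 had none, and Zbtb46 had 0 and 1 UMI.

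All 17 genes of a list made up mainly of pDC surface and adaptor genes were measured, 4 higher and 2 lower past 1.5-fold. Of all genes measured in pDCs 11.7% were higher and 20.3% lower, and the median log2 ratio of the list was 0.20. After Ly6a came Cd4, a coreceptor of T cells that mouse pDCs also carry, at 196 and 111 CPM and a ratio of 1.77 (1.16 to 2.65). The lowest was Pdcd4, a regulator of translation, at 0.453 (0.295 to 0.671) on 28 and 243 UMIs, and then Havcr1 at 0.640 (0.243 to 1.44) on 7 and 43 UMIs. Tyrobp, which encodes DAP12, the partner of Siglech, had 788 and 2692 UMIs and a ratio of 1.15.
Chemokine receptors beside Ccr9 gave 5 measured genes of 7, 2 of them lower and none higher, beside 20.3% and 11.7% of all genes. Their median log2 ratio was -0.40. Cxcr4, the receptor that holds cells in the bone marrow, had 11 UMIs in the treated and 180 in the control library, for a ratio of 0.240 (0.118 to 0.440), and Ccr7, which guides cells to lymph nodes, had no UMI in 21 cells with h219-LLG and 36 in 61 cells with control (49.9 CPM), which puts the upper bound of its ratio at 0.424. Both were also lower with h219-LLG in B cells, at 306 and 490 CPM of Cxcr4 and 508 and 714 CPM of Ccr7. The highest ratio of a chemokine receptor in pDCs was that of Ccr2 (1.06, 0.621 to 1.73). Of the B-lineage genes listed, 4 of 13 were measured, and Dntt, which adds nucleotides in recombining receptor genes, was at 251 and 229 CPM in pDCs against at most 5.47 and 5.37 CPM elsewhere. Among them Cd79b had the highest ratio (1.54, 0.627 to 3.45), followed by Il7r (1.18, 0.907 to 1.52), and Blnk the lowest (0.731, 0.513 to 1.02). Relatives in the Siglec and Ly6 families gave 3 measured genes of 9, and Siglecg, on 3 and 37 UMIs, had the lowest ratio at 0.319 (0.0629 to 1.01).
The 7 genes of the pDC gate gave 1 gene higher past 1.5-fold, Smim5 (1.63), and 1 lower, Cd209d (0.581), beside 11.7% and 20.3% of all genes. Their median log2 ratio was 0.14.
Genes known to respond to the stress of tissue dissociation differed in both directions in gated pDCs, with 3 of 11 higher and 5 lower past 1.5-fold, beside 11.7% and 20.3% of all genes measured there, and a median log2 ratio of -0.41. Hspa1b (2.54, 1.37 to 4.59) and Fos (1.82, 1.46 to 2.26) had the highest ratios, and Fosb (0.245, 0.156 to 0.366) and Junb (0.398, 0.266 to 0.577) the lowest. Their part in the differences of Ly6d, Cxcr4 or Ccl4 was not tested.

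**Figure D5:**
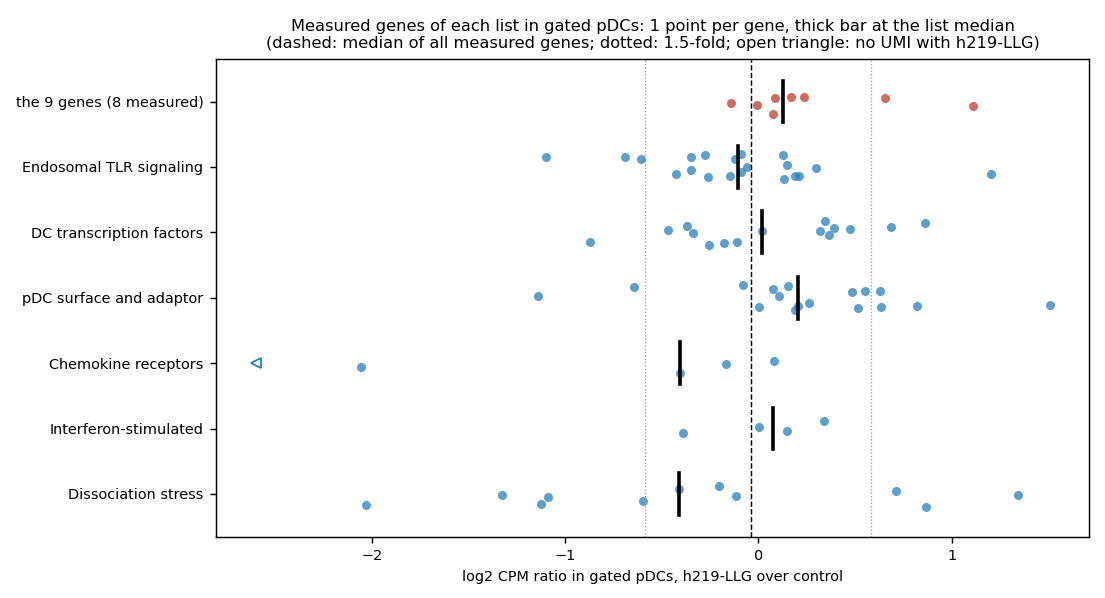
Log2 CPM ratio in gated pDCs, h219-LLG over control, of each measured gene (1 point) of the members and 6 lists, with a bar at the median of each list, a dashed line at the median of all measured genes (-0.04) and dotted lines at 1.5-fold. The members lie at a median of 0.13, and the open triangle at the left edge, not placed to scale, is Ccr7, without a UMI with h219-LLG.

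The genes most like Siglech over the 13 gates of both libraries (26 points) were sought by the Pearson correlation of log2(CPM + 10) among genes with at least 20 UMIs in pDCs. The 5 highest were Foxr1, 1700024P16Rik, D13Ertd608e, Ephb2 and Klk1, with correlations from 0.994 to 0.995. Klk1 is a gene of the pDC gate, and Foxr1 and Ephb2 rested on 25 and 21 UMIs. The other members ranked lower by this measure, with Ccr9 at 0.919, Runx2 at 0.814, Tcf4 at 0.772, Spib at 0.732, Ly6d at 0.698, Irf8 at 0.531 and Tlr7 at 0.510. The points share libraries and depth, and the correlations are a description.
Within pDCs the members were carried together by most cells. With h219-LLG 10 cells had UMIs of 7 of the 9 genes, 10 had 8 and 1 had all 9, and with control 40 of 61 cells had 8. Across the 61 control cells the highest correlations were those of Tcf4 with Runx2 (Pearson r = 0.585 of log2(1 + UMIs per 10000)) and with Irf8 (r = 0.503). The same pairs had r = 0.197 and 0.185 across the 21 h219-LLG cells. There the highest was Runx2 with Tlr7 (r = 0.605), a pair with r = 0.0629 in control. In 1 control cell of 3108 UMIs both Tcf4 and Irf8 had their highest control value. Tlr9 was left out. The correlated values share a library and a depth per cell and are a description.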

How the data were processed

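Live CD45+ cells of B16 tumors were profiled by droplet scRNAseq of 3' ends in 2 libraries, 1 per condition. The authors used Cell Ranger 5.0.0 with mm10 (submitters' processing notes) and deposited the resulting UMI counts, unnormalized, for barcodes already called as cells. A cell was kept here if it had 200 genes and 500 UMIs or more and less than 10% of its UMIs from mitochondrial genes. Doublet scores came from simulated doublets (2 per cell, 30 principal components, 2000 genes), and the highest 0.8% per 1000 barcodes were removed. Cells were gated by marker UMIs. The pDC gate asked for at least 3 UMIs and 2 genes of its 7. cDC1s had Xcr1 or Clec9a, cDC2s Cd209a alone or with Flt3, migratory DCs Fscn1 and Ccr7, B cells Cd79a with Ms4a1 or a further marker, T cells Cd3d, Cd3e or Cd3g, NK cells Ncr1 or Klrb1c without Cd3 genes, classical monocytes Ly6c2, Ccr2 and Lyz2, patrolling monocytes Ace, Treml4 or Eno3 with Lyz2, and macrophages C1q genes, or Spp1 or Arg1.

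UMIs were summed per gate and library and divided by the gate's sum (CPM), with exact Poisson intervals. Ratios have intervals from the binomial split of the counts, shares of cells exact (Clopper-Pearson) intervals, and ratios of shares intervals on the log scale, all at 95%. A gene was measured where it had at least 20 UMIs over both libraries, and called past 1.5-fold. A count of 0 allows up to 3 counts. Named were all 9 genes, the 2 highest and 2 lowest ratios of each list, and the 5 genes most like Siglech. A few genes that this rule names are not reported here. Other genes were named after their values were seen. The members and lists were chosen with earlier results of these data known. Other cell filters, doublet handling, gates, scalings, thinning to 1000 UMIs and folds were tried. Steps were tested on simulated data. Coordinates are those of GENCODE vM21 (GRCm38), and promoters those of RefSeq. Python 3.11.15, numpy 2.4.6, scipy 1.17.1 and scikit-learn 1.9.0 were used.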

Additional observations from a re-analysis of the deposited data

Results flagged for a closer look

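Tcf4 was lower with h219-LLG in gated cDC2s, with a ratio of 0.428 (0.269 to 0.686) on 47 and 34 UMIs, while it was higher in gated pDCs at 1.18 (1.07 to 1.30). It is listed because the ratios lie on opposite sides of 1 with intervals that exclude 1, and the difference itself was not tested. In the control library 14 of the 34 UMIs were in 1 of 11 cells, and without the cell of most Tcf4 UMIs in each library the ratio in cDC2s was 0.596 (0.342 to 1.07).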

How the results depend on the processing

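The largest change came from counting every cell that met the pDC gate as a pDC, whatever other gate it met. The share ratio was then 0.583, 8 members passed 1.5-fold, all lower with h219-LLG, 2 members were 4-fold over every other gate, and the ratios of Tcf4, Spib and Ly6d turned to 0.393, 0.517 and 0.663. The shares of all genes past these folds were not computed for the alternatives. Of the 96 h219-LLG and 127 control cells so counted, 36 and 101 had 4 or more Siglech UMIs, and of those that met the pDC gate, 1 T cell gate and no other, 2 of 36 and 1 of 16 had any. Under the other alternatives the share ratio ran from 0.221 without a mitochondrial limit to 0.313 as a share of the dendritic gates. Where the count of members at least 4-fold over every other gate was recomputed, it was 4 under the alternatives other than the one above. The number of members past 1.5-fold was 1 in place of 2 under a 5% mitochondrial limit, without doublet removal, after thinning, at a fold of 2 and with cells of exactly the pDC and cDC2 gates counted as pDCs, and Spib was the gene that no longer passed. Spib then lay at 1.24, 1.43, 1.45, 1.57 and 1.40. Ly6d kept a ratio of 1.81 to 2.39 in all alternatives but the one named above. Ccr9, at 0.996 in the main gate, lay at 0.813 under a 5% mitochondrial limit and 0.867 without doublet removal. It lay at 0.726 after thinning, at 0.799 with cells of exactly the pDC and cDC2 gates counted, and nowhere above 1.07. Tcf4, at 1.18 in the main gate, lay at 1.34 under a 5% mitochondrial limit and 1.02 with those cells counted. No paired analysis was possible because there is 1 library per condition. Depth limits Tlr9, with 7 UMIs in gated pDCs, and ratios in gates of few cells.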
